A study of Mus musculus with 15 samples.

Results

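Hcar2, Gpr65, Gpr84 and P2ry6 are 4 genes for G protein-coupled receptors that microglia use to sense metabolites. They were taken by symbol out of the 55401 genes counted in the mouse hippocampus, and all 4 were among the 19536 genes with enough reads to be tested. Hcar2 and Gpr65 were chosen by their measured counts, which were higher in Tg2576 mice, and the other two were added as related microglial receptors. The genotype differences of these 4 genes are therefore given as descriptions without a test, and tests are given for the effect of DHA and for its interaction with genotype.

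Hippocampal RNA came from 15 females of 18 to 20 months, of which 4 WT and 4 Tg2576 mice received vehicle, and 4 WT and 3 Tg2576 mice received DHA. Tg2576 mice (labelled Tg2576 +/+) carry human APP with the Swedish mutation of familial Alzheimer's disease, driven by the prion promoter, and the WT mice (labelled Tg2576 -/-) were littermates without the transgene. Docosahexaenoic acid (DHA), an omega-3 fatty acid, was given by the intragastric route each day at 450 mg/kg for 5 weeks, and the vehicle was sesame oil. The measurement is bulk RNA of the whole hippocampus, in which more cells of a type and more RNA per cell cannot be told apart. Each library held 17372864 to 46596489 counted reads (median 25645977). Levels are CPM, the count of a gene as a part of its library's total, after TMM scaling, which sets the libraries to a common scale from the bulk of their genes. Nothing in the sources used here ties mice to cages or litters, so the spread is that between mice.

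Microglia, the resident macrophages of the brain, follow the metabolic state of the tissue through receptors for small molecules. Hcar2 binds the ketone body beta-hydroxybutyrate and niacin, Gpr84 responds to medium-chain fatty acids, Gpr65 is activated by extracellular protons, and P2ry6 binds UDP, which damaged cells release and which prompts microglia to engulf material. Hcar2 and Gpr84 couple to inhibitory G proteins, Gpr65 raises cyclic AMP through Gs, and P2ry6 acts through Gq. In mice with amyloid plaques, microglia around plaques take on a state with raised Cst7, Itgax, Clec7a and Cd68.

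In the annotation used for counting (GENCODE M25, mouse genome GRCm38), Hcar2 (ENSMUSG00000045502.6) lies on chromosome 5 from 123863570 to 123865499 on the minus strand, as 1 exon of 1930 bases. Gpr65 (ENSMUSG00000021886.7) lies on chromosome 12 from 98268635 to 98276644 on the plus strand, with 2 exons that hold 2069 bases. Gpr84 (ENSMUSG00000063234.5) lies on chromosome 15 from 103308235 to 103310612 on the minus strand, with 2 exons that hold 1725 bases. P2ry6 (ENSMUSG00000048779.5) lies on chromosome 7 from 100937630 to 100974649 on the minus strand, with 2887 exon bases.

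Reads can be credited to a receptor only where its sequence is its own. The closest relative in the receptor lists, Hcar1, a lactate receptor, shares with the Hcar2 transcript a longest unbroken run of 18 bases. That run, chr5:123864737-123864754, is printed because it is the stretch where the pair are most alike, and it is shorter than the stretches of 50 bases compared next.

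Hcar2 and Hcar1 shared run: ttcatcatggtggtggct

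No stretch of 50 bases of the Hcar2 or P2ry6 transcripts (GENCODE M21) was found in a transcript of another gene. For Gpr65 and Gpr84 the annotation has a gene on the opposite strand that covers part of the exons. Gm47566 covers 511 of the 2069 exon bases of Gpr65 (24.7%) and Gm49482 covers 681 of the 1725 exon bases of Gpr84 (39.5%). The reads were counted without a strand setting, and by the tool's default a read that lies in exons of more than 1 gene is given to none. Both opposite genes had 0 reads in all 15 mice. The counts of Gpr65 and Gpr84 thus come from the other exon bases, and their level per length is given both ways below.

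The bases before the start site could be read for Gpr65 and Gpr84 from RefSeq promoters (GRCm38.p6), printed because these are the regulatory sequences next to a member chosen for its genotype difference and one that was not. Capitals mark matches, on either strand, to GAGGAA (the PU.1-type ETS core of myeloid genes), TGANTCA (AP-1), CCAAT or TATAAA. The Gpr65 sequence is chr12:98268385-98268634 on the plus strand, and the Gpr84 sequence is chr15:103310613-103310688 on the minus strand, cut to the 76 bases outside the annotated exon.

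Gpr65: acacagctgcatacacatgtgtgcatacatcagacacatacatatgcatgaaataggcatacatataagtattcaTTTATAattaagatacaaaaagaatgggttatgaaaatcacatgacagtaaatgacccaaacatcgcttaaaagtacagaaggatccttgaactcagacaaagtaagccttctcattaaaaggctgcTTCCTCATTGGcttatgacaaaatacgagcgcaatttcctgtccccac

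Gpr84: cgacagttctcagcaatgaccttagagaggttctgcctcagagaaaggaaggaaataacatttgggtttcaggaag

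The Gpr65 window held a TTCCTC, the opposite strand of GAGGAA, whose first base is 48 bases before the start site, followed with no gap by ATTGG, the opposite strand of CCAAT. These matches share no base. It also held TTTATA, the opposite strand of TATAAA, starting 175 bases before the start site. Of 32851 promoters searched over 250 bases, 23.3% held GAGGAA, 33.8% CCAAT, 12.4% TATAAA and 6.75% TGANTCA on either strand. No match was found in the shorter Gpr84 window.

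Hcar2 was higher in Tg2576 than in WT mice, and each of the 7 Tg2576 mice was above each of the 8 WT mice. The level was 0.517, 0.58, 0.338 and 0.241 CPM in the 4 WT vehicle mice and 0.088, 0.195, 0.414 and 0.384 CPM in the 4 WT DHA mice. It was 1.14, 0.905, 1.29 and 1.54 CPM in the 4 Tg2576 vehicle mice and 1.51, 0.591 and 1.86 CPM in the 3 Tg2576 DHA mice. The gap between the genotypes was narrow at its edge, since the lowest Tg2576 mouse (Tg2576 DHA replicate 2, 0.591 CPM) was 1.02 times the highest WT mouse (WT vehicle replicate 2, 0.58 CPM). The genotypes stayed apart with library sizes alone (1.07 times) and with median-ratio scaling (1.03 times). Of all genes tested, 2.18% had every Tg2576 mouse above every WT mouse under vehicle and 3.91% under DHA. The mean of Hcar2 was 3.66 times as high over the Tg2576 mice (1.26 CPM) as over the WT mice (0.345 CPM). These levels rest on 2 to 48 reads per mouse. All 15 counts were even, and if both ends of a fragment were counted, they rest on fewer fragments than reads. The log2 fold change of Tg2576 against WT was 1.54 ± 0.445 (SE) under vehicle and 2.30 ± 0.5 (SE) under DHA.

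Gpr65 also separated the genotypes, at a lower level. The level was 0.0431, 0.0967, 0.203 and 0.211 CPM in the WT vehicle mice and 0.176, 0.195, 0 and 0.144 CPM in the WT DHA mice. It was 0.341, 0.776, 0.473 and 0.406 CPM in the Tg2576 vehicle mice and 0.432, 0.325 and 0.503 CPM in the Tg2576 DHA mice. Every Tg2576 mouse was above every WT mouse, and the lowest Tg2576 level was 1.54 times the highest WT level. The mean was 0.465 CPM in Tg2576 and 0.133 CPM in WT mice, 3.48 times as high. A WT mouse had at most 7 reads and a Tg2576 mouse 6 to 24, and the WT DHA mouse with 0 reads had 19265589 counted reads in all, so that 0 reads allow a level of up to 0.155 CPM there (3 reads, counting error only). That limit takes reads as independent, and it would be higher if both ends of a fragment were counted. The log2 fold change was 1.87 ± 0.604 (SE) under vehicle and 1.6 ± 0.662 (SE) under DHA. Of all genes tested, 0.189% had every Tg2576 mouse above every WT mouse over both treatments, and 2 of the 4 receptors did, which were the 2 picked for that difference.

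Gpr84 overlapped between the genotypes. Its level was 0.797, 0.532, 0.574 and 0.421 CPM in WT vehicle mice and 0.352, 0.13, 0.517 and 0.432 CPM in WT DHA mice. It was 0.568, 1.23, 0.344 and 0.732 CPM in Tg2576 vehicle mice and 1.51, 0.887 and 0.503 CPM in Tg2576 DHA mice. Of the 7 Tg2576 mice 3 were above every WT mouse, and the lowest Tg2576 mouse was below 7 of the 8 WT mice. The log2 fold change of genotype was 0.31 ± 0.467 (SE) under vehicle and 1.47 ± 0.521 (SE) under DHA. Without Tg2576 vehicle replicate 2, the mouse with the highest level of its group, the value under vehicle was -0.10.

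P2ry6 was the most abundant of the 4 receptors by CPM and had the smallest coefficient of variation within each group. The level was 3.42, 4.64, 5.95 and 5.54 CPM in WT vehicle mice and 4.67, 4.29, 4.71 and 5.28 CPM in WT DHA mice. It was 5.68, 5.46, 5.84 and 5.57 CPM in Tg2576 vehicle mice and 6.23, 4.37 and 6.66 CPM in Tg2576 DHA mice. Only 2 of the 7 Tg2576 mice were above every WT mouse. The log2 fold change of genotype was 0.21 ± 0.184 (SE) under vehicle and 0.28 ± 0.198 (SE) under DHA. The mean was 5.69 CPM over the Tg2576 mice and 4.81 CPM over the WT mice, 1.18 times as high.

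**Figure D1:**
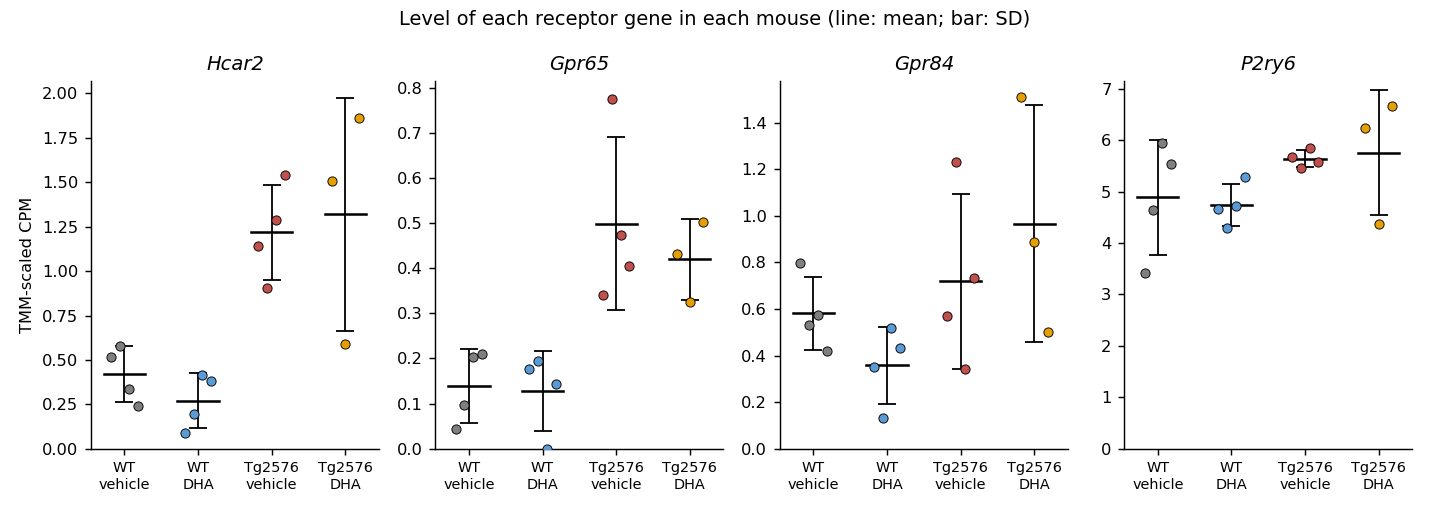
TMM-scaled CPM of Hcar2, Gpr65, Gpr84 and P2ry6 (y axis, linear, from 0, a scale per gene) in each mouse of the 4 groups (x axis), with a point per mouse, a line at the mean and a bar of 1 SD. For Hcar2 the Tg2576 mice start at 0.591 CPM and the WT mice end at 0.58 CPM, for Gpr65 these levels are 0.325 and 0.211 CPM, and for Gpr84 and P2ry6 the genotypes overlap.

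The order of the 4 groups differed between the receptors. For Hcar2 the means rose from 0.27 ± 0.155 CPM in WT DHA (SD, n = 4) and 0.419 ± 0.157 CPM in WT vehicle mice (SD, n = 4) to 1.22 ± 0.269 CPM in Tg2576 vehicle (SD, n = 4) and 1.32 ± 0.655 CPM in Tg2576 DHA mice (SD, n = 3). The 2 WT groups were within their spread of each other, as were the 2 Tg2576 groups. For Gpr84 the lowest mean was also in WT DHA mice, at 0.358 ± 0.166 CPM (SD, n = 4), and the highest in Tg2576 DHA mice, at 0.967 ± 0.509 CPM (SD, n = 3). WT vehicle mice at 0.581 ± 0.158 CPM (SD, n = 4) and Tg2576 vehicle mice at 0.718 ± 0.375 CPM (SD, n = 4) lay between them, and no neighbours in that order differed beyond their spread. For Gpr65 the highest mean was in Tg2576 vehicle mice, at 0.499 ± 0.192 CPM (SD, n = 4), next to Tg2576 DHA mice at 0.42 ± 0.0897 CPM (SD, n = 3). The WT vehicle mean was 0.138 ± 0.082 CPM (SD, n = 4) and the WT DHA mean 0.129 ± 0.0883 CPM (SD, n = 4), within their spread of each other. The P2ry6 means ran from 4.73 ± 0.409 CPM in WT DHA (SD, n = 4) to 5.75 ± 1.21 CPM in Tg2576 DHA mice (SD, n = 3).

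Per kilobase of exon, the scale on which levels of different genes can be compared, P2ry6 came first with a mean level of 1.81 CPM per kb over the 15 mice. Hcar2 had 0.401, Gpr84 0.368 and Gpr65 0.139 CPM per kb. With the exon bases that an opposite gene covers left out of the length, Gpr84 came to 0.608 CPM per kb, above Hcar2, and Gpr65 to 0.185 CPM per kb. The order of Hcar2 and Gpr84 thus turned on how the shared bases are treated.

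Whether DHA altered these receptors was tested in each genotype with the two-sided quasi-likelihood test of edgeR, fitted on all 19536 genes, with Benjamini-Hochberg adjustment. The threshold was the study's unadjusted p of 0.01, passed by 1.38% of all genes for DHA against vehicle in the WT groups, 0.353% for the same comparison in the Tg2576 groups and 0.829% for the interaction. None of the 4 receptors passed it in any of these 3 comparisons, and none had an unadjusted p under 0.05, whether by edgeR, DESeq2 or limma-voom. The genotype and DHA comparisons share mice and are not independent of each other.

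In WT mice given DHA, Hcar2 had a log2 fold change of -0.65 ± 0.5 (SE) against vehicle, with a 95% interval from -1.75 to 0.45 (p = 0.21, adjusted p = 0.887 by edgeR, and p = 0.257 by an exact permutation test of log2 CPM). In Tg2576 mice its log2 fold change with DHA was 0.11 ± 0.449 (SE), with an interval from -0.88 to 1.10 (adjusted p = 0.999). The interaction, the DHA effect in Tg2576 less that in WT mice, was 0.76 ± 0.67 (SE), with an interval from -0.72 to 2.23 (adjusted p = 0.854).

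Gpr84 had the smallest p of the 4 receptors in each DHA comparison. Its log2 fold change with DHA was -0.75 ± 0.5 (SE) in WT mice, with an interval from -1.85 to 0.35 (p = 0.154, adjusted p = 0.873 by edgeR, exact permutation p = 0.0857). In Tg2576 mice it was 0.41 ± 0.492 (SE), with an interval from -0.68 to 1.49 (adjusted p = 0.999 by edgeR). The interaction was 1.15 ± 0.701 (SE), with an interval from -0.39 to 2.70 (adjusted p = 0.845 by edgeR). With 1 mouse left out the interaction ranged from 0.68 without Tg2576 DHA replicate 1 (unadjusted p = 0.369 by edgeR) to 1.56 without Tg2576 vehicle replicate 2 (unadjusted p = 0.0419 by edgeR), and in each case it was short of the threshold.

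For Gpr65, the log2 fold change with DHA was -0.0127 ± 0.776 (SE) in WT mice and -0.28 ± 0.591 (SE) in Tg2576 mice, and the interaction was -0.26 ± 0.913 (SE). The intervals ran from -1.72 to 1.70, from -1.58 to 1.03 and from -2.27 to 1.75, which are the widest of the 4 genes, with the fewest reads. For P2ry6 the same values were -0.0449 ± 0.185, 0.0274 ± 0.198 and 0.0723 ± 0.271 (SE), with intervals from -0.45 to 0.36, from -0.41 to 0.46 and from -0.52 to 0.67. The DHA effect on P2ry6 was therefore bounded more closely than on the other 3 receptors. The adjusted p of edgeR was 0.967 or more for each of these 6 values. The smallest p that an exact permutation test allows is 0.0286 for groups of 4 and 4 and 0.0571 for groups of 4 and 3.

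**Figure D2:**
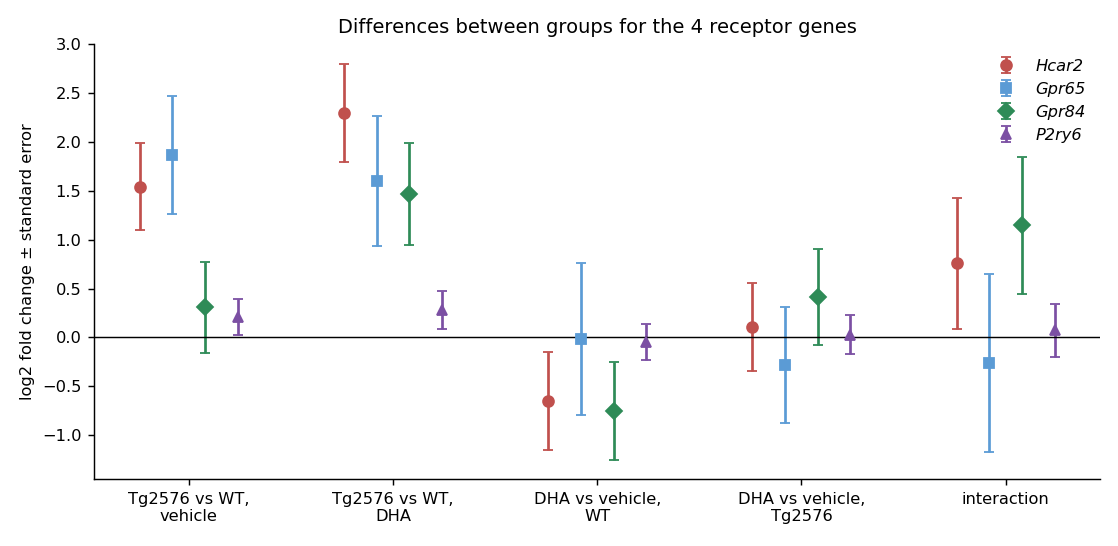
Log2 fold changes (y axis, with bars of 1 standard error) of the 4 receptor genes in the 2 genotype comparisons, the 2 DHA comparisons and the interaction (x axis). Hcar2 and Gpr65 lie between 1.54 and 2.30 in the genotype comparisons, whereas in the DHA comparisons all values lie between -0.75 and 0.41.

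Since these receptors are found mainly on microglia in the brain, their levels were set against the summed core microglial markers of each sample. That sum does not count cells, since a marker can also rise per cell. The 13 core microglial markers (among them Csf1r, Ctss and C1qa) summed to 461 to 600 CPM in WT vehicle, 427 to 554 CPM in WT DHA, 557 to 828 CPM in Tg2576 vehicle and 567 to 849 CPM in Tg2576 DHA mice. No marker of the list was at 0 in a group. Under vehicle 3 of the 13 rose in Tg2576 mice and none fell, and under DHA 5 rose and none fell, where 3.09% and 1.75% of all genes passed the threshold. The log2 fold changes of 11 of the 13 were above 0 and those of 2 below 0 under vehicle, and all 13 were above 0 under DHA. Ctss, a lysosomal protease, rose in both, by 0.56 on the log2 scale under vehicle (adjusted p = 0.29 by edgeR) and 0.76 under DHA (adjusted p = 0.45 by edgeR).

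Per 1000 CPM of those markers, Hcar2 had a mean of 0.683 ± 0.335 over the WT mice (SD, n = 8) and 1.81 ± 0.497 over the Tg2576 mice (SD, n = 7), a ratio of 2.65. On that scale the genotypes met, since the lowest Tg2576 mouse was at 1.04 and the highest WT mouse at 1.12. Gpr65 had 0.265 ± 0.159 in WT (SD, n = 8) and 0.674 ± 0.205 in Tg2576 mice (SD, n = 7), a ratio of 2.55. Its genotypes stayed apart, with 0.413 as the highest WT and 0.571 as the lowest Tg2576 value. The means of Hcar2 and Gpr65 differed between genotypes by more than the summed markers did. Both genes were picked for being higher in Tg2576 mice, so this is a description and no evidence about them.

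For the other two receptors the genotypes overlapped on this scale. Gpr84 per 1000 CPM of the markers was 0.941 ± 0.418 in WT (SD, n = 8) and 1.24 ± 0.637 in Tg2576 mice (SD, n = 7), and P2ry6 was 9.57 ± 1.33 in WT (SD, n = 8) and 8.31 ± 1.01 in Tg2576 mice (SD, n = 7). For P2ry6 the direction turned, from 1.18 times as high in Tg2576 mice by CPM to 0.868 times as high per marker. For Gpr84 it turned under vehicle alone. There the means were 0.581 CPM in WT and 0.718 CPM in Tg2576 mice, and per marker Tg2576 mice were 0.945 times as high. These ratios were not tested, as they rest on the genotype difference by which the genes were picked.

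**Figure D3:**
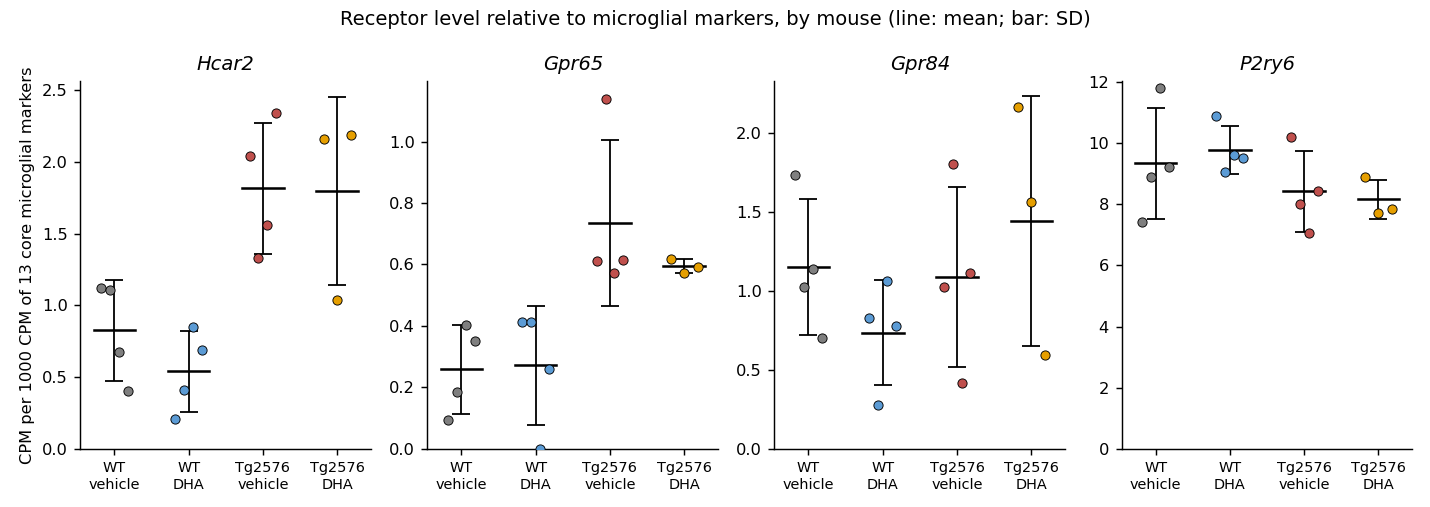
CPM of each receptor gene per 1000 CPM of the 13 summed core microglial markers (y axis, linear, from 0) in each mouse of the 4 groups (x axis), with a point per mouse, a line at the mean and a bar of 1 SD. Gpr65 stays apart between genotypes (0.413 against 0.571), Hcar2 meets at its edge (1.12 against 1.04), and P2ry6 is slightly lower in Tg2576 mice.

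Markers of other cells that could carry these receptors moved as well, and their part in the result was not tested. The 14 markers of plaque-associated microglia summed to 229 to 289 CPM in WT vehicle, 226 to 262 CPM in WT DHA, 215 to 385 CPM in Tg2576 vehicle and 259 to 358 CPM in Tg2576 DHA mice. In Tg2576 mice 4 were higher under vehicle, 5 higher under DHA and none lower at p under 0.01, beside 1.16% and 1.06% of all genes higher. Cst7, a cystatin and a leading gene of that state, had log2 fold changes of 3.02 (adjusted p = 0.0766 by edgeR) and 3.40 (adjusted p = 0.13 by edgeR). At a mean of 5.1 CPM over the 15 mice Cst7 was a small part of these sums, which overlapped between genotypes. The largest parts were Lpl (63.7 CPM), Axl (52.8 CPM) and Cd9 (41 CPM), none of which passed in a genotype comparison. The sums thus follow these genes more than Cst7 and are no measure of that state. Hcar2 is also made by neutrophils. The 8 neutrophil markers summed to 10.9 to 17.5 CPM in WT vehicle, 9.88 to 12.1 CPM in WT DHA, 9.42 to 22 CPM in Tg2576 vehicle and 13.5 to 21.9 CPM in Tg2576 DHA mice, mostly Csf3r, which microglia also express. Ly6g, the defining surface marker, had 2 reads in all 15 mice together and 0 in 3 of the 4 groups. S100a8 rose in Tg2576 mice under DHA by 2.39 on the log2 scale (adjusted p = 0.548 by edgeR), from 0.174 ± 0.129 CPM in WT (SD, n = 4) to 0.913 ± 0.748 CPM in Tg2576 mice (SD, n = 3). It was the only neutrophil marker of 3 tested to pass, beside 1.06% of all genes higher.

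Gpr65 is also expressed by lymphocytes. The 10 lymphocyte markers summed to 1.01 to 1.57 CPM in WT vehicle, 0.931 to 1.69 CPM in WT DHA, 0.965 to 2.94 CPM in Tg2576 vehicle and 1.66 to 2.63 CPM in Tg2576 DHA mice. The genotypes overlapped under both treatments, and 8 of the 10 markers, Cd3e, Cd3d and Cd3g among them, had too few reads to be tested. The 9 monocyte and perivascular macrophage markers summed to 12.8 to 24.5 CPM over both WT groups and 26.5 to 45.3 CPM over both Tg2576 groups, without overlap. Most of that sum was Lyz2, the lysozyme of myeloid cells, so the sum mostly follows 1 gene. Its mean was 16.7 of 21.6 CPM in WT vehicle and 29.3 of 39.2 CPM in Tg2576 DHA mice. Lyz2 rose under DHA by 1.16 on the log2 scale (adjusted p = 0.384 by edgeR), and under vehicle 1 of 8 tested markers, Ly6c2, rose. Of all genes tested, 1.16% were higher under vehicle and 1.06% under DHA at that threshold.

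Markers of the remaining tissue were also summed. Astrocyte markers summed to 3350 to 4730 CPM in WT and 3540 to 5180 CPM in Tg2576 mice. Of the 6 astrocyte markers only Gfap, an intermediate filament protein, passed the threshold, with log2 fold changes of 1.02 under vehicle (adjusted p = 0.0766 by edgeR) and 1.01 under DHA (adjusted p = 0.253 by edgeR). The log2 fold changes of 4 of the 6 were below 0 under vehicle and 1 under DHA, and their medians were -0.0773 and 0.0628. The 5 neuronal markers summed to 5320 to 6260 CPM in WT and 5020 to 5920 CPM in Tg2576 mice, and the 7 hippocampal markers to 684 to 954 CPM in WT and 678 to 795 CPM in Tg2576 mice. Of all genes tested, 3.09% passed under vehicle and 1.75% under DHA in either direction, for comparison with these lists and the astrocyte list. In the neuronal and the hippocampal list 1 marker each was lower in Tg2576 mice under each treatment and none was higher. Under vehicle these were Gad1, an enzyme of GABA synthesis, by log2 -0.28 (adjusted p = 0.261 by edgeR), and Prox1, a transcription factor of dentate granule cells, by -0.46 (adjusted p = 0.198 by edgeR). Under DHA they were Slc17a7, a vesicular glutamate transporter, by -0.32 (adjusted p = 0.56 by edgeR), and Wfs1, a marker of CA1 neurons, by -0.40 (adjusted p = 0.39 by edgeR). With DHA in WT mice Wfs1 was higher by 0.31 (adjusted p = 0.542 by edgeR) and Prox1 lower by -0.37 (adjusted p = 0.669 by edgeR). Red blood cell markers ranged from 92.8 to 958 CPM and choroid plexus markers from 60.2 to 5800 CPM, with each Tg2576 DHA mouse at 3080 CPM or more of the latter.

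The wider receptor families were described from lists of 41 further receptor genes, of which 29 were tested. Several of them were drawn by the study from these same mice in a pathway scheme, so they are not independent evidence. Under vehicle 1 of the 29 was higher in Tg2576 mice at p under 0.01 and none lower, beside 1.16% of all genes higher. Under DHA 5 were higher and 1 lower, beside 1.06% of all genes higher. The median log2 fold change of the 29 was 0.20 under vehicle and 0.32 under DHA, where the median of all genes tested was near 0 (0.000304 and -0.00353). No receptor had an adjusted p under 0.05. In the comparisons of DHA with vehicle none of the 29 passed at p under 0.01 by edgeR, and 4 had an unadjusted p under 0.05 in WT and 0 in Tg2576 mice. In WT mice 1 receptor was called higher by DESeq2 and 1 by limma-voom. None passed in the interaction, where 5 had an unadjusted p under 0.05.

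Among the receptors for fatty and organic acids, the family of Hcar2 and Gpr84, only Hcar1 and Gpr35 of 9 others had enough reads. Hcar1 was at 2.42 ± 1.86 CPM in WT vehicle (SD, n = 4) and 2.30 ± 1.18 CPM in Tg2576 vehicle mice (SD, n = 4), and its genotype difference was -0.0699 ± 0.518 under vehicle and 0.0525 ± 0.563 under DHA (log2 fold change and SE). The neighbouring lactate receptor showed no genotype difference beyond its spread. Gpr35, a receptor for kynurenic acid and other acids, had log2 fold changes of -0.32 ± 0.422 under vehicle and 0.0212 ± 0.479 under DHA (SE). Ffar1, Ffar2, Ffar3 and Ffar4, the receptors for free fatty acids, of which Ffar1 and Ffar4 also bind DHA, had 2, 4, 8 and 17 reads over all 15 mice. Sucnr1, the succinate receptor, had 14 reads. Oxgr1, the receptor for oxoglutarate, came next after Hcar1 and Gpr35 per length, at 0.063 CPM per kb, and was not tested.

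Gpr65 belongs to a family of proton sensors. Gpr4, a member of that family found on endothelium, had log2 fold changes of 0.21 ± 0.215 under vehicle and -0.14 ± 0.232 under DHA (SE). Gpr132, also of that family, had 45 reads in all and was not tested. Of the 2 tested relatives of Gpr65, 0 passed under vehicle and 1 was lower in Tg2576 mice under DHA at p under 0.01 by edgeR. Under DHA 1.75% of all genes passed in either direction.

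Among the P2Y receptors, to which P2ry6 belongs, P2ry12, the ADP receptor that marks resting microglia, was the most abundant per length at 7.62 CPM per kb. Its log2 fold change was 0.51 ± 0.172 in Tg2576 against WT mice under DHA, past the threshold (adjusted p = 0.56 by edgeR), and -0.00742 ± 0.16 under vehicle (adjusted p = 0.989 by edgeR). The interaction for P2ry12 was 0.52 ± 0.235 (adjusted p = 0.845 by edgeR) and did not pass the threshold, so a difference between treatments was not shown. P2ry13, another ADP receptor, had 0.27 ± 0.177 under vehicle and 0.31 ± 0.191 under DHA, and P2ry1 had 0.28 ± 0.282 and 0.45 ± 0.296 (log2 fold change and SE). None of the 4 adenosine receptors passed in a genotype comparison, and Adora1, the most abundant at 39.6 CPM per kb, had log2 fold changes of -0.15 ± 0.0948 and -0.0529 ± 0.102 (SE).

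C3ar1, the receptor for complement C3a, was the single further receptor to rise in Tg2576 mice under both treatments. Its level was 1.82 to 2.37 CPM in WT vehicle, 0.88 to 2.69 CPM in WT DHA, 3.23 to 5.56 CPM in Tg2576 vehicle and 3.46 to 4.96 CPM in Tg2576 DHA mice, so that the genotypes did not overlap. On the log2 scale Tg2576 mice were higher by 1.0 ± 0.278 when given vehicle (adjusted p = 0.209 by edgeR) and 1.07 ± 0.298 under DHA (adjusted p = 0.536 by edgeR). Under DHA Gpr34, a lysophosphatidylserine receptor, rose by 1.16 ± 0.335, Adgre1, an adhesion receptor of macrophages, by 0.83 ± 0.278, and Cx3cr1, the fractalkine receptor, by 0.49 ± 0.163 (log2 fold change and SE). Under vehicle the values were 0.75 ± 0.313 for Gpr34, -0.0498 ± 0.258 for Adgre1 and 0.16 ± 0.152 for Cx3cr1, short of the threshold. Their interactions did not pass it either, so a difference between treatments was not shown. S1pr1, a sphingosine 1-phosphate receptor and the most abundant of this list at 32.2 CPM per kb, had log2 fold changes of -0.27 ± 0.129 and -0.0863 ± 0.14 and did not pass. The count of 5 under DHA depended on single mice. It was 0 without Tg2576 DHA replicate 3 and 2 without WT DHA replicate 1. It was 3 without any of Tg2576 DHA replicate 1, Tg2576 vehicle replicate 3, WT DHA replicate 3 or WT vehicle replicates 1, 3 and 4, and the single lower call was lost without Tg2576 DHA replicate 1 or WT DHA replicate 2. Under vehicle the count of 1 higher became 2 without Tg2576 vehicle replicate 1, and 1 was lower without Tg2576 vehicle replicate 2.

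**Figure D4:**
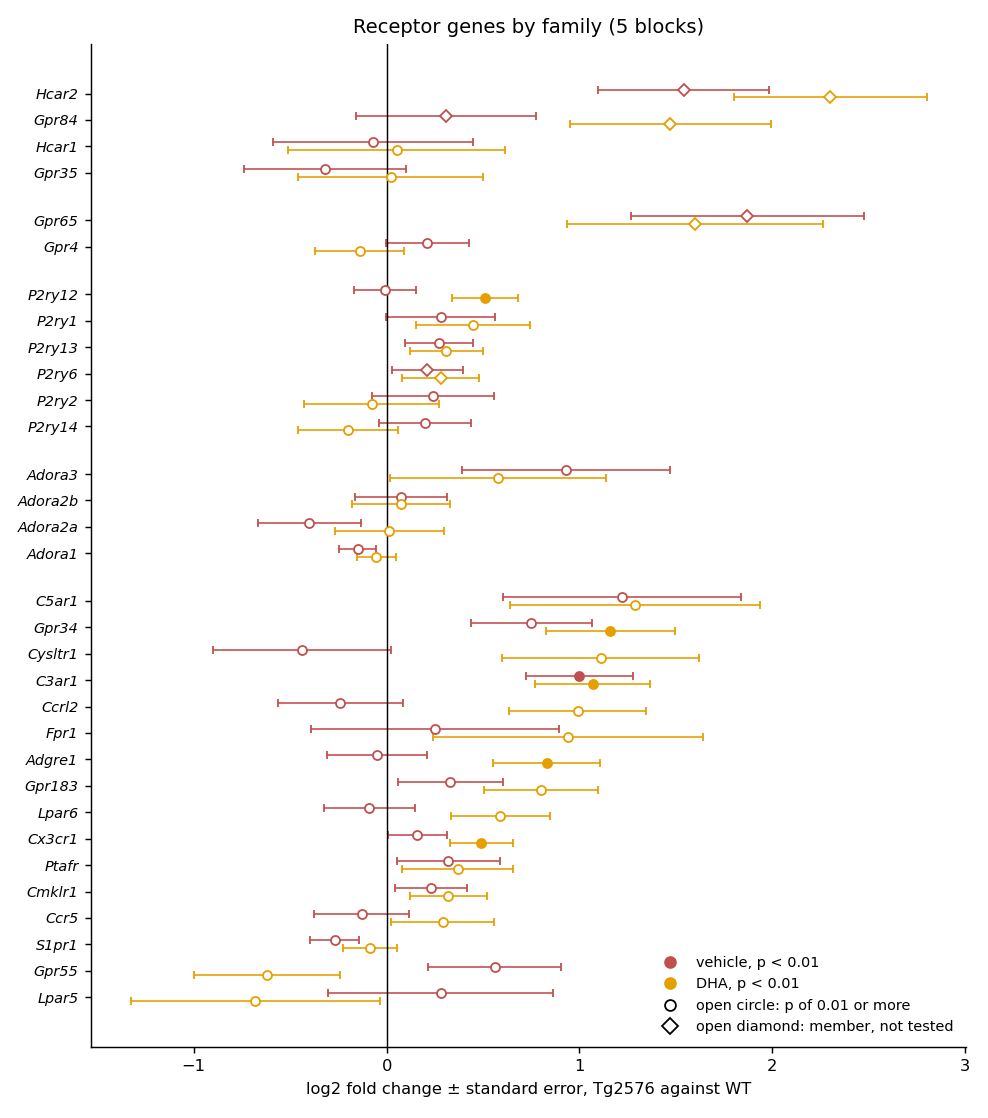
Log2 fold changes of Tg2576 against WT mice (x axis, bars of 1 standard error) under vehicle (red) and under DHA (orange) for tested receptor genes (y axis) in 5 blocks from top to bottom, namely fatty and organic acid, proton, P2Y, adenosine and other microglial receptors. Filled circles have p under 0.01, and diamonds are the 4 receptors of interest, which were not tested. Hcar2 under DHA lies farthest to the right at 2.30, and C3ar1 is filled in both colours.

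Downstream of the receptors, none of 21 tested genes for G proteins, arrestins and effectors passed in a genotype comparison by edgeR, with 4 under vehicle and 1 under DHA at an unadjusted p under 0.05. Gnai2, an inhibitory G protein subunit through which Hcar2 and Gpr84 can signal, had log2 fold changes of 0.0406 ± 0.0898 under vehicle and 0.10 ± 0.0968 under DHA (SE). Gnao1, mostly neuronal, had -0.16 ± 0.0686 and -0.0774 ± 0.0742, and Grk2, a receptor kinase, had 0.074 ± 0.0809 and -0.20 ± 0.0877. Of 18 tested genes that make, move or break down the ligands (ketone body enzymes, lactate dehydrogenases, nucleotidases and others), none passed in a genotype comparison, and 1 in each had an unadjusted p under 0.05. Ldha, which makes lactate, had log2 fold changes of -0.16 ± 0.101 and -0.13 ± 0.109 (SE). In the DHA comparisons and the interaction no gene of either list passed, with 0 to 2 of each list at an unadjusted p under 0.05.

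Within groups, a shared rise and fall of the 4 receptors was not seen, though the low counts of 3 of them could hide it. Over the 15 mice, after the mean of each group was subtracted from log2 CPM, Pearson's r was -0.452 between Hcar2 and Gpr65, 0.109 between Hcar2 and Gpr84, 0.2 between Hcar2 and P2ry6, -0.292 between Gpr65 and Gpr84, 0.454 between Gpr65 and P2ry6 and -0.155 between Gpr84 and P2ry6. With the log2 sum of core microglial markers, r was 0.613 for P2ry6, 0.445 for Hcar2, 0.301 for Gpr65 and -0.316 for Gpr84. These are descriptions without a p, in which each point is 1 library and 3 of the receptors have few reads.

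The genes most like each receptor by that measure, out of 19535 compared, were for Hcar2 Gm12696 (0.912), Manf (0.90), Snx1 (0.892), AC122481.2 (0.88) and Adipor1 (0.873). For P2ry6 they were Sap18 (0.893), Slc35e4 (0.885), Trim27 (0.872), Rnf113a1 (0.864) and Tpbgl (0.856). For Gpr65 they were AC110730.1 (0.911), Gm17115 (0.899), Gm37309 (0.856), Nckap5los (0.826) and 9330188P03Rik (0.816). For Gpr84 they were Cyp4x1os (0.879), Gm7666 (0.86), Rec8 (0.846), Tmc6 (0.838) and Gm29417 (0.834). None of these 20 genes is in the receptor or marker lists. The likeness of Nckap5los to Gpr65 fell to 0.398 within the 7 Tg2576 mice alone.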

How the data were processed

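RNA of the hippocampus was sequenced in 15 mice. The authors aligned the reads with STAR 2.6.1c and counted them per gene with featureCounts 1.6.0 on GENCODE M25 of GRCm38, without a strand or paired-end option, and the deposited values are these raw read counts. The study names the TruSeq Stranded mRNA kit and the sample descriptions a SMARTER kit. Of counts from 2 to 99 in genes of 1 exon, 85.3% were even, and Hcar2 was even in 15 of 15 mice. Whether each end of a fragment was counted is not given in the sources used here, and halved counts were tried as an alternative.

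Genes were kept by filterByExpr (minimum count 10), scaled by TMM (factors 0.9609 to 1.027) and fitted with the robust quasi-likelihood model of edgeR 4.0.16 in R 4.3.3, with 1 coefficient per group. Standard errors are the log2 fold change over the square root of F, and intervals use 11 residual degrees of freedom at 95%. Log2 CPM used a prior count of 2. The members and lists were chosen with earlier results of these data known. Named list genes are those with the lowest p under 0.01 or the highest levels, up to 5 a list. Some genes of the lists enter the sums and counts but are not reported singly or drawn here. On simulated data with 200 of 19536 genes changed by 1 on the log2 scale for DHA in WT mice, 72.5% passed the threshold, against 0.843% of the others. Of the changed genes, 68.5% passed for DHA in Tg2576 mice and 57% for the interaction. The changed genes were drawn at random from all genes tested. These rates were therefore not measured at the low counts of Hcar2, Gpr65 and Gpr84 and cannot be read as theirs. The alternatives were DESeq2 1.42.0, limma-voom (limma 3.58.1), no TMM factors, no filter, at least 10 counts in every mouse, only the 2 groups compared, no robust option, a replicate block, the level per summed core microglial markers, and each mouse left out.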

Additional observations from a re-analysis of the deposited data

Results flagged for a closer look

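Among the genes of the lists, the interaction term of edgeR showed an effect of DHA that differed between genotypes for Ly6c2 at an unadjusted p under 0.01. This marker of inflammatory monocytes, which endothelial cells can also express, had an interaction of -3.05 on the log2 scale (adjusted p = 0.845 by edgeR). It had 0.27 to 0.421 CPM in WT vehicle mice, 1.32 to 2.44 CPM in WT DHA mice, 0.517 to 3.24 CPM in Tg2576 vehicle mice and 0.612 to 1.86 CPM in Tg2576 DHA mice, so that the WT vehicle mice stood below all others. For the 4 receptors, the highest and the lowest mouse in each of the 3 groups of 4 were within the limit of Dixon's gap criterion at 95%, and the group of 3 was not tested. Gpr65 in Tg2576 vehicle replicate 2, at 0.776 CPM (24 reads) against 0.341 to 0.473 CPM (6 to 11 reads) in the other mice of that group, was within that limit too, and without this mouse the log2 fold change of Gpr65 with DHA in Tg2576 mice went from -0.28 to 0.0319.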

How the results depend on the processing

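None of Hcar2, Gpr65, Gpr84 and P2ry6 passed p of 0.01 for DHA or the interaction under any alternative that fitted the gene and gave a p, each mouse left out included. The level per summed core microglial markers gave no p. The halved counts were added after the data were seen. Signs turned where values lay near 0. With limma-voom the DHA effect in Tg2576 mice was -0.0676 for Hcar2 and -0.0139 for P2ry6, DHA in WT was 0.0095 for P2ry6, and its interaction was -0.0234. With halved counts DHA in WT was 0.0631 for Gpr65. Per summed core microglial markers, the genotype difference was 1.49 for Hcar2 under DHA, 1.09 (vehicle) and 0.91 (DHA) for Gpr65, 0.73 for Gpr84 under DHA, and -0.15 (vehicle) and -0.26 (DHA) for P2ry6. These values come from log2 CPM with a prior count of 2, which shrinks differences at low counts, whereas the main values are edgeR coefficients. The moves thus mix a change of scale with the division by the markers, and the part of each was not tested. As ratios of group means per marker, Gpr65 was 2.84 times as high in Tg2576 mice under vehicle and 2.2 times under DHA.

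With 1 mouse left out, DHA in WT ranged from -0.92 (without WT DHA replicate 3) to -0.36 (without WT DHA replicate 1) for Hcar2, from -0.98 (without WT DHA replicate 3) to -0.44 (without WT DHA replicate 2) for Gpr84, from -0.37 to 0.34 for Gpr65 and from -0.19 to 0.0648 for P2ry6. DHA in Tg2576 ranged from -0.22 to 0.47 for Hcar2, -0.42 to 0.0319 for Gpr65, -0.0548 to 0.82 for Gpr84 and -0.0902 to 0.20 for P2ry6. The interaction ranged from 0.43 (without Tg2576 DHA replicate 3) to 1.11 (without Tg2576 DHA replicate 2) for Hcar2, 0.68 to 1.56 for Gpr84, -0.62 to 0.0926 for Gpr65 and -0.0439 to 0.23 for P2ry6, and Gpr84 under vehicle from -0.10 to 0.54. Genotype values of Hcar2 stayed at 1.35 or more and those of Gpr65 at 1.25 or more.

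The count of other receptors called higher for DHA in WT was 1 with DESeq2, limma-voom or only the 2 groups compared, where 1 (P2ry12) was also lower. With 1 mouse left out the genotype counts ranged from 1 to 2 higher and 0 to 1 lower under vehicle, and from 0 to 5 higher and 0 to 1 lower under DHA. The DHA and interaction counts ranged from 0 to 1. At least 10 counts in every mouse left P2ry6 as the only one of the 4. The replicate block (equal numbers did not pair mice, median r = 0.012 over 21 pairs) gave an interaction of 0.78 for Hcar2 and changed no call. Depth limits Gpr65 most, with 0 to 24 reads a mouse.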
